A study of Homo sapiens with 6 samples.

Results

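The suppressors of cytokine signalling (SOCS) and the related protein CISH form a family of 8 human genes, SOCS1 to SOCS7 and CISH. They were taken from the table of read counts by symbol, through the Ensembl gene IDs, and all 8 had a row among 60664 genes. Each was measured in 6 RNA libraries from SKOV3 cells, a line established from a human ovarian carcinoma and known for high ERBB2 expression. A short hairpin RNA against JUP was used for 3 of them (genotype JUP knockdown, shJUP 1 to 3), and the other 3 were controls (shNC 1 to 3, genotype WT). JUP encodes plakoglobin, a junction protein, and the title of the series links it to PDGFB and JAK-STAT signalling. How many hairpin sequences or clones lie behind each group is not given in the sources used here.

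Cytokine receptors activate JAK kinases, which phosphorylate the receptor tails and the STAT transcription factors. Activated STATs induce several SOCS genes, and the proteins then act back on the same receptors, so that the family forms a negative feedback loop. Each member has an SH2 domain, which binds phosphotyrosine, and a C-terminal SOCS box, which recruits elongins B and C and cullin 5 for ubiquitination of the bound protein. SOCS1 and SOCS3 also inhibit JAK kinases directly through a kinase inhibitory region. CISH and SOCS2 are best known as inhibitors of STAT5-coupled receptors such as those for growth hormone and prolactin. SOCS4 to SOCS7 have long N-terminal regions and are mostly studied in receptor tyrosine kinase and insulin signalling. The comparison of shJUP with shNC asks whether transcripts of this feedback arm differ after JUP knockdown. Protein levels and STAT phosphorylation were not measured.

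Promoter sequences are shown because the inducible members are textbook STAT and interferon targets. RefSeq promoter windows (GRCh38.p14) were found for 5 of the 8 members, with 2 start sites for SOCS3. In the 250 bases before each start, 3 motifs were searched on both strands, with N for any base: TTCNNNGAA, which STAT dimers bind, the same TTC and GAA with 4 N between them, and GAAA repeated after 2 N, the core of interferon response elements. The CISH window held 4 matches of TTCNNNGAA, in 2 close pairs starting at -241 and -230 and at -129 and -112 from the start site. Of 35116 such windows over all genes, 6.57% held at least 1 match, 0.356% at least 2, and 5 windows at least 4. The SOCS1 window held the spaced GAAA repeat at -113, a motif found in 3.02% of windows. The STAT motif with 4 N, found in 5.38% of windows, had no match in the windows of these members. The windows of SOCS3, SOCS4 and SOCS6 held none of the 3 motifs. Bases outside the windows, among them those between the 2 SOCS3 windows, were not searched, so sites there would be missed. A match is a description of letters and no evidence of binding. The 3 sequences below run 5′ to 3′ on the minus strand, with matches in capitals. They are the CISH window with its 4 matches (chr3:50611775-50612024), the SOCS1 window (chr16:11256205-11256454) and, for the gene with the widest spread among the well-measured members, the first SOCS3 window (chr17:78360926-78361175).
CISH: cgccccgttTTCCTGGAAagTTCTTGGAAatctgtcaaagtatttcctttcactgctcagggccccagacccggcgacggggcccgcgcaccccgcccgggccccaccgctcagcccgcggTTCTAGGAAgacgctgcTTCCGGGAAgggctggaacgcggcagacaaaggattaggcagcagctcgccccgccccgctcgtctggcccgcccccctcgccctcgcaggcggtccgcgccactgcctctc
SOCS1: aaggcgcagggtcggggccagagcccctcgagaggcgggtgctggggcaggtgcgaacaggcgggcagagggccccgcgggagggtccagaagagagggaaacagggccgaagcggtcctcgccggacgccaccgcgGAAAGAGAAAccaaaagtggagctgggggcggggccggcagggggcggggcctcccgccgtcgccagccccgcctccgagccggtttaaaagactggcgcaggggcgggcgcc
SOCS3: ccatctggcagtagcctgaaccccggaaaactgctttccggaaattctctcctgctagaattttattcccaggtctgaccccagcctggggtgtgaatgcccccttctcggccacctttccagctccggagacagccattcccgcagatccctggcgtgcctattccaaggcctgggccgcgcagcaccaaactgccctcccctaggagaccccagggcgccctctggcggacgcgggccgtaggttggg

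**Figure D1:**
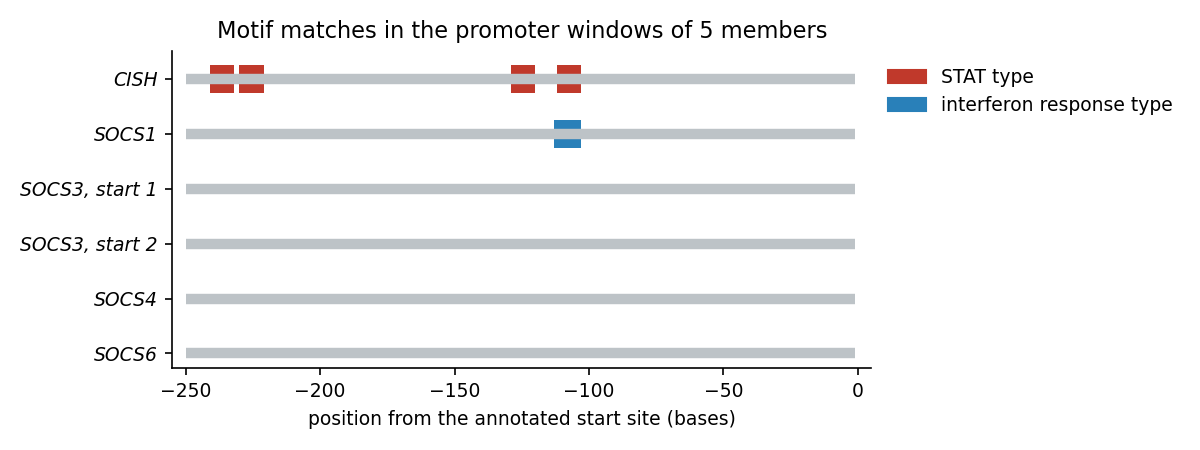
Position of motif matches in bases from the annotated start site, for the 6 windows of 5 members. Red boxes are TTCNNNGAA matches and the blue box is the spaced GAAA repeat. CISH holds 4 red boxes in 2 pairs, SOCS1 holds 1 blue box, and the other windows are empty.

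Some facts of the libraries bear on every result. Library totals ranged from 17456121 to 19279514 estimated counts. JUP stood at 39.9, 93.6 and 24.6 CPM (counts relative to library size, scaled by TMM) across shJUP 1 to 3 and at 104, 133 and 101 CPM across shNC 1 to 3. It was therefore below each control in each shJUP library, but least so in shJUP 2, and the difference did not pass (log2 -1.10, adjusted p = 0.47 in edgeR and 0.18 in DESeq2). With the block, the adjusted p was 0.12 in edgeR and 0.048 in DESeq2. Both number-2 libraries stood apart from the rest: for 36.4% of 15867 tested genes, both lay above or both below the other 4 libraries. What the number marks is not given in the sources used here. Of 9 ovarian carcinoma markers, 7 reached 1 CPM in a library, with PAX8 at 253 to 393 CPM, whereas MUC16 (at most 0.637 CPM) and MSLN (at most 0.907 CPM) stayed below that. Of 11 leukocyte markers, 1 reached 1 CPM, CD68. PTPRC, which marks all leukocytes, was at no more than 0.0533 CPM. Summed fibroblast markers ranged from 11.2 to 269 CPM in shJUP and from 43.8 to 497 CPM in shNC. COL1A1 made up most of this sum in every library, at 8.76 to 253 CPM in shJUP and 38.3 to 401 CPM in shNC. Of the 8 fibroblast markers, 5 reached 1 CPM in a library. COL3A1 (46.0 CPM), COL1A2 (26.1 CPM), LUM (15.5 CPM) and DCN (7.54 CPM) were, like COL1A1, highest in shNC 2. PDGFRB, THY1 and FAP stayed under 1 CPM in every library. The part of these markers in the results below was not tested. In bulk RNA, fewer cells with a transcript and less transcript per cell cannot be told apart.

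SKOV3 cells expressed mainly the long-N-terminus members of the family. Compared per length (mean CPM per kilobase of exon ± SD over all 6 libraries), SOCS6 was highest at 15.8 ± 0.82, followed by SOCS4 at 9.98 ± 1.8. SOCS7 (7.52 ± 0.71), SOCS3 (7.04 ± 2.5) and SOCS5 (5.76 ± 0.61) came next, and neighbours in this order did not differ beyond their spread. SOCS2 was lower, at 1.88 ± 0.34 CPM per kilobase. CISH, at 0.368 ± 0.17, and SOCS1, at 0.160 ± 0.06 CPM per kilobase, were lowest, and SOCS1 had at most 7 counts in a library. SOCS6 made up 32.5% of the family's summed level per kilobase, SOCS1 0.33% and CISH 0.759%. With the length of the longest transcript in place of all exons, SOCS5 moved up to 9.18 CPM per kilobase, above SOCS7 and SOCS3. Summed over all 8 members, the level was 321, 304 and 295 CPM across shJUP 1 to 3 and 301, 311 and 312 CPM across shNC 1 to 3, so the groups overlapped.

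**Figure D2:**
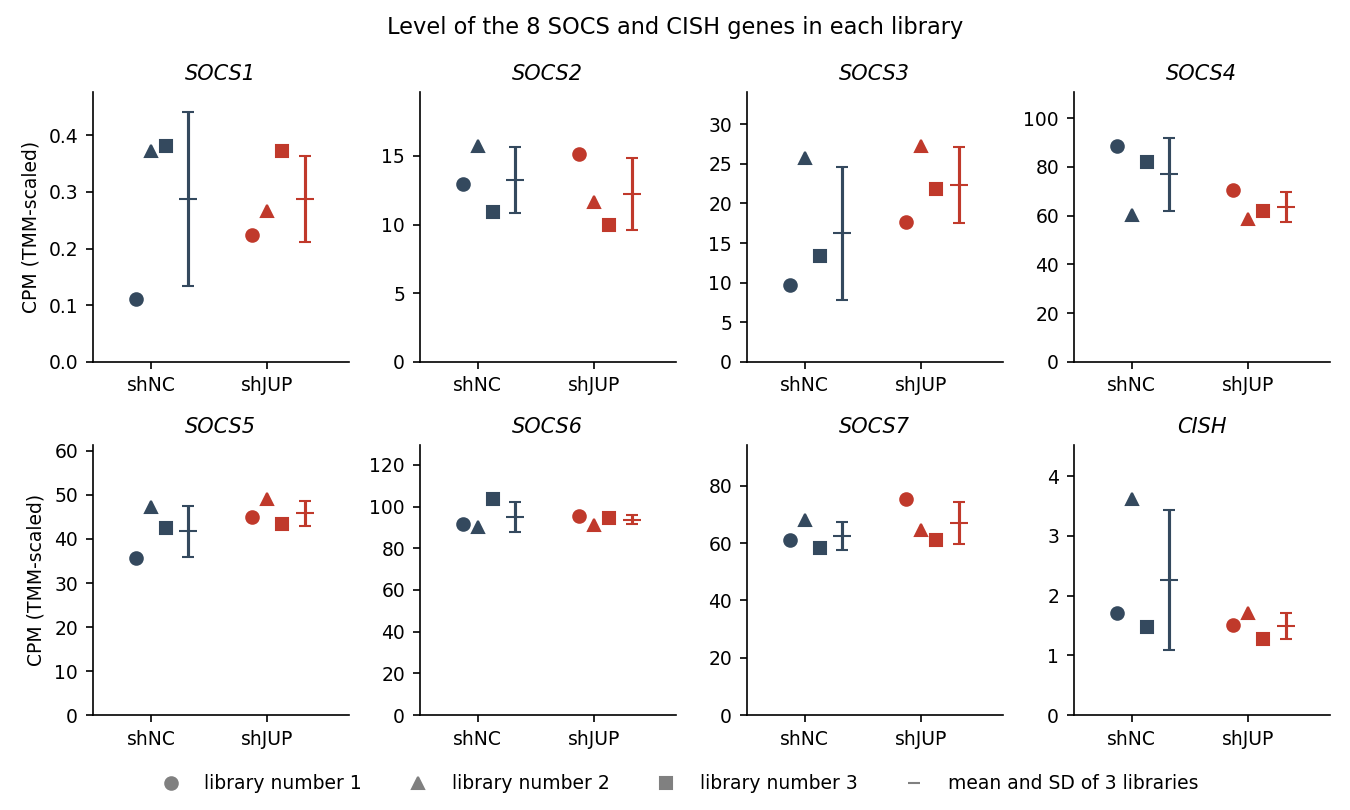
CPM of each of the 8 genes (linear axes from 0, one scale per gene) in the 3 shNC and 3 shJUP libraries. Symbols give the library number, and the bar beside them the mean and SD of 3 libraries. The groups overlap in every panel, and the number-2 triangles of SOCS3 and SOCS5 lie highest.

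No member of the family passed the test between shJUP and shNC. The edgeR quasi-likelihood test could be applied to 7 of the 8 members, since SOCS1 had too few counts. It called 0 of them (adjusted p 0.61 to 0.96) and 0 of all genes, a background of 0%. Before adjustment, 0 of the 7 members had an edgeR p under 0.05, against 10% of all tested genes. DESeq2 also called 0 members, where its background was 1.19%. The groups overlapped for each of the 7 members, whereas 17% of the tested genes showed no overlap. The edgeR log2 fold changes (shJUP over shNC) were above 0 for 3 and below 0 for 4 members, with a median of -0.02 beside -0.01 over all tested genes. The median size without sign was 0.13 on the log2 scale, beside 0.19 over all tested genes.

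SOCS3, the feedback inhibitor of receptors that signal through IL6ST (gp130), had the widest spread among the members above 5 CPM. It stood at 17.7, 27.3 and 21.9 CPM across shJUP 1 to 3 and at 9.67, 25.7 and 13.3 CPM across shNC 1 to 3. Both number-2 libraries were highest, and apart from them each shJUP library lay above both controls. The log2 fold change was 0.46 (SE 0.36, 95% interval -0.38 to 1.29) (edgeR adjusted p = 0.68). Within numbers, shJUP was 1.83-fold the control in number 1 (95% counting interval 1.52 to 2.21), 1.06-fold in number 2 (0.934 to 1.20) and 1.64-fold in number 3 (1.40 to 1.93). The ratio was thus above 1 beyond counting error in numbers 1 and 3, and not in number 2. Fitted with the library number as a block, the log2 fold change was 0.54 (interval 0.11 to 0.98) (edgeR adjusted p = 0.19). Numbers 1 and 3 alone gave 0.79 (adjusted p = 0.15 in edgeR, 0.074 in DESeq2). Leaving out shNC 2 alone raised it to 0.95 (edgeR adjusted p = 0.30), and leaving out shNC 1 lowered it to 0.19 (edgeR adjusted p = 0.89).

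SOCS1, the main inhibitor of interferon receptors, was barely detected. It had 4, 5 and 7 counts across shJUP 1 to 3 and 2, 7 and 7 counts across shNC 1 to 3. The sum was 16 counts in each group, or 0.288 CPM in shJUP (95% exact Poisson interval 0.165 to 0.468) and 0.289 CPM in shNC (0.165 to 0.470). A difference within these intervals was not detectable at this depth.

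CISH, a STAT5-induced inhibitor, was also low, and a single control library set its difference. It stood at 1.51, 1.71 and 1.27 CPM across shJUP 1 to 3 and at 1.71, 3.61 and 1.47 CPM across shNC 1 to 3, from 24 to 68 counts per library. Except for shNC 2, all libraries lay between 1.27 and 1.71 CPM. The log2 fold change of -0.60 (SE 0.41, interval -1.55 to 0.35) did not pass (edgeR adjusted p = 0.64) and shrank to -0.09 without shNC 2 (edgeR adjusted p = 0.94). The ratio within number 2 was 0.473 (95% counting interval 0.300 to 0.729), and those in numbers 1 and 3 were 0.879 and 0.868, each with an interval that held 1. In GENCODE release 29, exons of MAPKAPK3 on the opposite strand cover 4.26% of the exon length of CISH, and reads there cannot be assigned since the strand setting is not given.

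SOCS2, an inhibitor of growth hormone signalling, showed no common direction. It was at 15.1, 11.6 and 9.98 CPM across shJUP 1 to 3 and at 13.0, 15.7 and 10.9 CPM across shNC 1 to 3. The log2 fold change was -0.11 (SE 0.21, interval -0.61 to 0.39; edgeR adjusted p = 0.89). It turned to 0.033 without shNC 2, to 0.016 without shJUP 3 and to 0.078 without both number-2 libraries, and was -0.29 without shJUP 1. The ratio was 1.16 in number 1 and 0.913 in number 3, both with counting intervals that held 1, and 0.740 (0.618 to 0.884) in number 2. Its estimated counts were not whole in 4 of 6 libraries, and those of SOCS7 in 1, so the split of reads between genes is uncertain for both. The antisense gene SOCS2-AS1, which overlaps 4.09% of its exon length, reached 54.8 estimated counts.

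**Figure D3:**
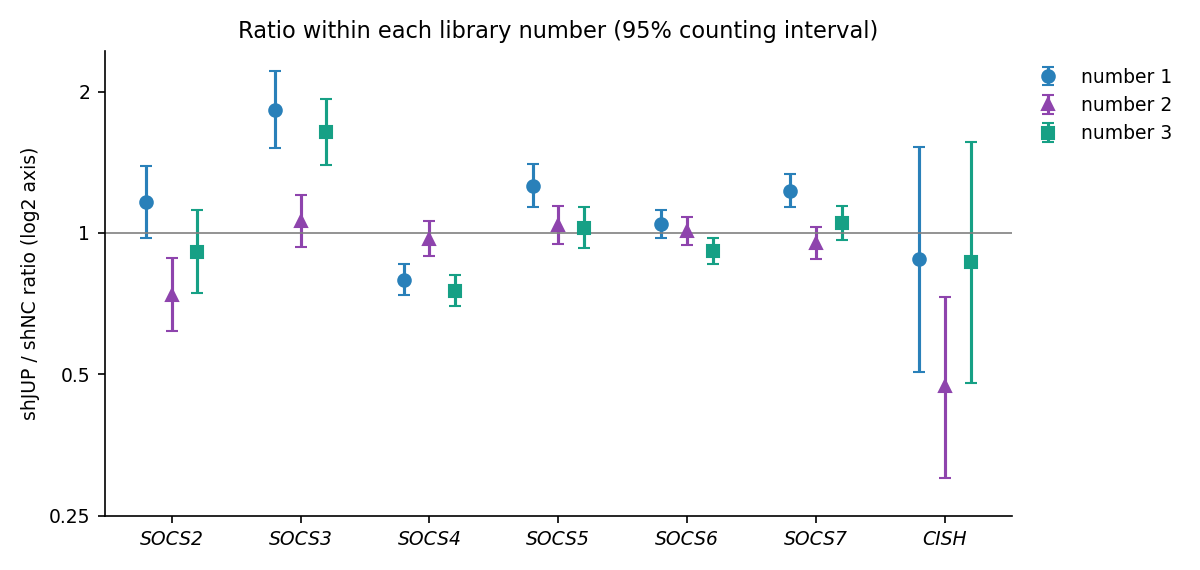
Ratio of shJUP to shNC (log2 axis) within each library number for 7 members, with 95% counting intervals. SOCS3 lies at 1.83 and 1.64 in numbers 1 and 3 and at 1.06 in number 2, and SOCS4 at 0.796, 0.754 and 0.973.

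SOCS4 and SOCS5, close relatives that promote degradation of the EGF receptor, ran opposite to each other over the libraries. SOCS4 was at 70.5, 58.6 and 61.9 CPM across shJUP 1 to 3 and at 88.6, 60.2 and 82.1 CPM across shNC 1 to 3. Its number-2 libraries were lowest, and controls 1 and 3 were highest. The log2 fold change was -0.27 (SE 0.16, interval -0.65 to 0.11), the smallest p of the family (edgeR adjusted p = 0.61). Within numbers the ratio was 0.796 (counting interval 0.739 to 0.857), 0.973 (0.895 to 1.06) and 0.754 (0.698 to 0.815), so numbers 1 and 3 lay below 1 beyond counting error. Without shNC 2 the log2 fold change was -0.42 (edgeR adjusted p = 0.34), and without shNC 1 it was -0.16 (edgeR adjusted p = 0.82).

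SOCS5 was at 45.0, 49.0 and 43.5 CPM across shJUP 1 to 3 and at 35.6, 47.2 and 42.4 CPM across shNC 1 to 3. Its number-2 libraries were highest, and shNC 1 was lowest. The log2 fold change was 0.13 (SE 0.13, interval -0.18 to 0.45; edgeR adjusted p = 0.75), and 0.033 without shNC 1 or 0.23 without shNC 2. The ratio was 1.26 (counting interval 1.14 to 1.40) in number 1, and the intervals of numbers 2 and 3 (1.04 and 1.03) held 1.

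SOCS6 and SOCS7, which form another pair of relatives and bind insulin receptor substrates and other kinase signalling proteins, varied least. SOCS6 was at 95.3, 91.2 and 94.7 CPM across shJUP 1 to 3 and at 91.4, 90.4 and 103 CPM across shNC 1 to 3. Its log2 fold change was -0.02, and the 95% interval reached from -0.26 to 0.22, so a fold outside 0.837 to 1.16 lay beyond it (edgeR adjusted p = 0.96). The ratio was 1.04 in number 1 and 1.01 in number 2, with counting intervals that held 1, and 0.915 (0.858 to 0.977) in number 3. The direction of this small difference turned without shNC 3 (0.047). SOCS7 was at 75.3, 64.7 and 61.2 CPM across shJUP 1 to 3 and at 61.2, 68.1 and 58.3 CPM across shNC 1 to 3. Here shJUP 1 was highest, and the other libraries lay between 58.3 and 68.1 CPM. Its log2 fold change was 0.10 (SE 0.12, interval -0.18 to 0.38; edgeR adjusted p = 0.79), with a ratio of 1.23 (counting interval 1.14 to 1.33) in number 1 only, as those of numbers 2 and 3 held 1. Without shJUP 1 the log2 fold change was 0.014.

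**Figure D4:**
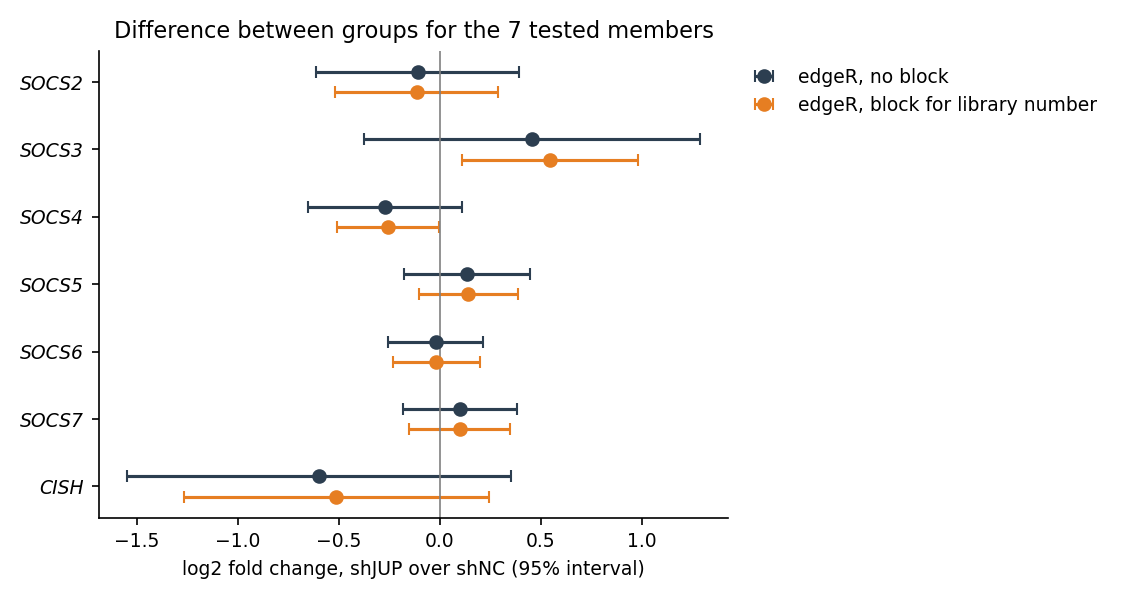
Log2 fold change of shJUP over shNC with 95% intervals for the 7 tested members, by edgeR without (dark) and with (orange) a block for the library number. Without the block every interval holds 0. With it those of SOCS3 (0.11 to 0.98) and SOCS4 (-0.51 to -0.01) do not, and neither member passes after adjustment.

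The number-2 libraries were compared with the other 4 libraries as a description. For 4 of the 7 tested members both number-2 libraries lay on the same side outside the range of the other 4, where 36.4% of all tested genes did: SOCS3 and SOCS5 above, SOCS4 and SOCS6 below. For SOCS6 the gap was small, from 91.2 to 91.4 CPM. Within numbers, 4 of 7 members had the same direction in all 3 numbers (SOCS3 and SOCS5 higher, SOCS4 and CISH lower), where 43.8% of all tested genes did. With a block for the library number, 2 of 7 members had an unadjusted edgeR p under 0.05, SOCS3 and SOCS4, against 19.2% of all genes. Neither passed after adjustment (edgeR 0.19 and 0.25), and DESeq2 with the block called 0 members, where its background was 5.25%.

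Across the 6 libraries the log2 levels of SOCS3 and SOCS4 ran opposite to each other (Pearson r = -0.99), and those of SOCS3 and SOCS5 together (r = 0.93). These correlations describe 6 points, of which the number-2 libraries form an extreme pair. The genes most like SOCS3 over the 6 libraries were KDM1A and ANKMY2 (r = 0.997 and 0.996), those most like SOCS4 MTERF1 and RANBP6 (0.995 and 0.994), and those most like SOCS5 CREBL2 and FBH1 (0.994 and 0.988). SOCS2 was most like SNHG14 and PDE4D (0.990 and 0.978), SOCS7 like ENSG00000279364 and USP49 (0.981 and 0.976), and SOCS6 like ENSG00000254873 and FAM193A (0.953 and 0.940). Among 11357 genes searched, 75 exceeded 0.95 with SOCS3, 81 with SOCS4 and 57 with SOCS5, but 1 with SOCS6.

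The surrounding pathway was read from 9 lists, which held 154 distinct tested genes. The edgeR test called 0 of them, and 17 (9 higher, 8 lower, 11% of those tested) had an unadjusted p under 0.05, near the 10% of all genes. DESeq2 called 7, or 4.55%, of which 4 were higher and 3 lower, where its share over all genes was 1.19%. With the block it called 15, or 9.74%, of which 4 were higher and 11 lower, where the share over all genes was 5.25%. The list shares are over the 154 genes tested in edgeR. Those over all genes are over the 15066 and, with the block, 13251 genes with a DESeq2 adjusted p. Because the lists were chosen with earlier results of these data known, a higher share in them is no test of the pathway.

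Upstream of SOCS3, 13 of 18 ligands and receptors of the IL-6 family were tested, with 9 above and 4 below 0 and a median log2 fold change of 0.28. DESeq2 called 3 higher and 1 lower, against 1.19% of all genes, and edgeR called 0. IL6, a ligand that acts through IL6ST, was at 74.4, 69.2 and 51.9 CPM across shJUP 1 to 3 and at 29.3, 19.5 and 28.8 CPM across shNC 1 to 3. IL11, another such ligand, was at 15.8, 8.22 and 13.6 CPM across shJUP 1 to 3 and at 3.87, 1.33 and 3.86 CPM across shNC 1 to 3. LIFR, a partner receptor of IL6ST, was at 69.0, 53.3 and 66.2 against 31.1, 38.5 and 39.1 CPM in the same order. For these 3 genes every shJUP library lay above every control, also within number 2. They are named for the smallest edgeR p of the list, so lack of overlap largely follows from that choice. SOCS3, which overlapped, was not chosen by its values. Of the 13 tested genes, 3 lay above every control and 2, IL11RA and IL6ST, below, where 17% of all tested genes did not overlap. DESeq2 called IL6, IL11 and LIFR, while their edgeR adjusted p-values were 0.32, 0.34 and 0.33. The lower call was IL11RA, the receptor of IL11, at 3.17 ± 0.61 against 6.94 ± 1.9 CPM (SD, n = 3 each; DESeq2 adjusted p = 0.042), and it is named here after its values were seen. The shared receptor IL6ST was at 551 ± 46 against 627 ± 23 CPM (log2 -0.19, edgeR adjusted p = 0.59), and OSM was at 0 in all libraries.

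Of the 11 JAK kinases and STAT factors, 5 lay above and 6 below 0. STAT2, which acts downstream of interferon receptors, was at 30.2, 39.4 and 30.4 CPM across shJUP 1 to 3 and at 47.6, 49.2 and 44.5 CPM across shNC 1 to 3, and the groups did not overlap. DESeq2 called it lower with the block (adjusted p = 0.036) and with the number-2 pair left out (0.019), but not in all 6 libraries without a block (0.15). In edgeR STAT2 did not pass without or with the block (adjusted p = 0.40 and 0.12). STAT5B, the STAT most tied to CISH and SOCS2, was at 111, 106 and 91.2 against 127, 154 and 125 CPM (edgeR log2 -0.40, adjusted p = 0.43; DESeq2 adjusted p with the block = 0.056). STAT5A was at 2.43 ± 0.33 against 2.55 ± 0.30 CPM (edgeR log2 -0.07, adjusted p = 0.94). STAT5A and STAT6 overlapped between the groups. Of 34 other JAK-coupled receptors 17 were tested, with a median of 0.01. DESeq2 called IL13RA2, a decoy receptor of IL13, higher at 3.82 ± 2.2 against 0.667 ± 0.20 CPM (adjusted p = 0.0042). PRLR, the prolactin receptor, was at 1.90 ± 0.58 against 0.978 ± 0.13 CPM (edgeR log2 0.95, adjusted p = 0.45). IL13RA1, a signalling receptor of IL13, was at 155 ± 21 against 206 ± 36 CPM, and DESeq2 called it lower with the block (adjusted p = 0.011). In edgeR IL13RA1 did not pass without or with the block (adjusted p = 0.46 and 0.12).

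No gene of the machinery that the SOCS box recruits passed the test. Of 11 such genes, all tested, 7 lay above and 4 below 0, with a median log2 of 0.03, and DESeq2 and edgeR called 0 with or without the block. CUL5, the scaffold of the ligase, was at 99.5 ± 7.6 against 99.4 ± 3.8 CPM. ARIH2, a ubiquitin ligase that works with cullin 5, was at 83.2 ± 9.8 against 68.2 ± 2.8 CPM (edgeR log2 0.29, adjusted p = 0.48). ELOC, which encodes elongin C, was at 103 ± 11 against 87.3 ± 6.1 CPM, and DCUN1D1, a factor for cullin neddylation, at 83.8 ± 4.0 against 98.7 ± 10 CPM. Neither passed in edgeR (adjusted p 0.55 and 0.54). Among 29 other SOCS box genes 19 were tested, 10 above and 9 below 0, and DESeq2 called 0. The smallest p-values belonged to ASB2 (1.63 ± 0.70 against 0.631 ± 0.27 CPM), SPSB3 (5.89 ± 1.2 against 7.86 ± 0.32 CPM) and RAB40A (0.364 ± 0.23 against 0.693 ± 0.45 CPM), with edgeR adjusted p-values of 0.45, 0.56 and 0.67.

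Inhibitors of JAK-STAT signalling outside the family numbered 16, of which 14 were tested, 8 above and 6 below 0. CBLB, a ubiquitin ligase that restrains receptor signalling, was at 19.1, 26.8 and 20.3 CPM across shJUP 1 to 3 and at 40.8, 46.3 and 30.3 CPM across shNC 1 to 3. Every shJUP library lay below every control, and the edgeR log2 fold change was -0.83 (SE 0.20, edgeR adjusted p = 0.39). DESeq2 called it lower (adjusted p = 0.034). PIAS2, a SUMO ligase that inhibits STATs, was at 46.0 ± 1.4 against 56.2 ± 1.6 CPM (edgeR log2 -0.29, adjusted p = 0.43), also without overlap. PTPN11, the phosphatase SHP2, which shares its docking site on IL6ST with SOCS3, was at 403 ± 41 against 339 ± 27 CPM (edgeR log2 0.25, adjusted p = 0.54).

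Of 30 genes that STAT3 or STAT5 induce, SOCS members left out, 25 were tested, with 5 above and 20 below 0 and a median log2 of -0.15. Over all tested genes 48.6% lay above 0, with a median of -0.01. MCL1, an anti-apoptotic BCL2 relative, was at 496, 468 and 459 CPM across shJUP 1 to 3 and at 636, 722 and 657 CPM across shNC 1 to 3, and DESeq2 called it lower (edgeR log2 -0.50, SE 0.10; DESeq2 adjusted p = 0.0061). JUNB, an immediate early transcription factor, was at 66.0, 176 and 88.9 CPM in shJUP and at 168, 308 and 161 CPM in shNC. It was highest in both number-2 libraries and lower in shJUP within every number. DESeq2 called it with the block (adjusted p = 1.3e-08) and with the number-2 pair left out (2.0e-07), against 0.25 in all 6 libraries without a block. In edgeR JUNB did not pass without or with the block (adjusted p = 0.49 and 0.074). CCND3 was higher in each shJUP library, at 32.5 ± 4.5 against 24.0 ± 0.50 CPM (edgeR log2 0.44, adjusted p = 0.41).

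Interferon response genes, which SOCS1 restrains, had 28 of 29 members tested, 16 above and 12 below 0, with a median log2 of 0.04. DESeq2 called 0 of them, beside 1.19% of all genes, and with the block 2 lower, beside 5.25%. Leaving out both number-2 libraries left 2 per group, and DESeq2 then called 5 lower. These were OAS1, OAS2, OAS3, MX1 and IFI44L, with log2 fold changes from -3.38 (IFI44L) to -0.79 (OAS3). In that setting edgeR called only IL11 among the listed genes. DESeq2 called 643 genes over the whole table there, but their share of all genes was not computed. The 5 interferon response calls are therefore a description only. In all 6 libraries without a block, their edgeR log2 fold changes were 0.005 (OAS1), 0.06 (OAS2), -0.27 (OAS3), 0.30 (MX1) and -0.07 (IFI44L). These 5 and IFIT1 are named after their values were seen. MX1, an antiviral GTPase, was at 3.91, 30.6 and 5.20 CPM in shJUP and at 10.8, 8.39 and 13.1 CPM in shNC, and IFIT1 at 11.7, 52.8 and 12.1 against 16.7, 15.7 and 19.1 CPM. For both genes shJUP 2 was highest, and shJUP 1 and 3 lay below every control. RSAD2 spanned 0.478 to 24.2 CPM over the 6 libraries, OASL 0.372 to 16.1 CPM and PSMB9 1.81 to 12.5 CPM, and the groups overlapped for each. Of 19 kinases and adaptors that SOCS proteins bind, 16 were tested, 7 above and 9 below 0. ERBB2 was at 2320, 4422 and 3271 CPM across shJUP 1 to 3 and at 4393, 6907 and 4224 CPM across shNC 1 to 3. DESeq2 called it lower with the block (adjusted p = 2.3e-04) and with the number-2 pair left out (0.013), against 0.36 in all 6 libraries without a block. In edgeR ERBB2 did not pass without or with the block (adjusted p = 0.51 and 0.12). PTK2B, a focal adhesion kinase relative, was at 3.74 ± 0.69 against 2.47 ± 0.44 CPM, and the adaptor NCK2 at 51.2 ± 3.8 against 43.8 ± 3.8 CPM (edgeR adjusted p 0.52 and 0.56). PDGFB, the ligand in the title of the series, was at 0.614, 1.55 and 0.372 CPM across shJUP 1 to 3 and at 1.60, 3.35 and 2.83 CPM across shNC 1 to 3 (edgeR adjusted p = 0.44).

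**Figure D5:**
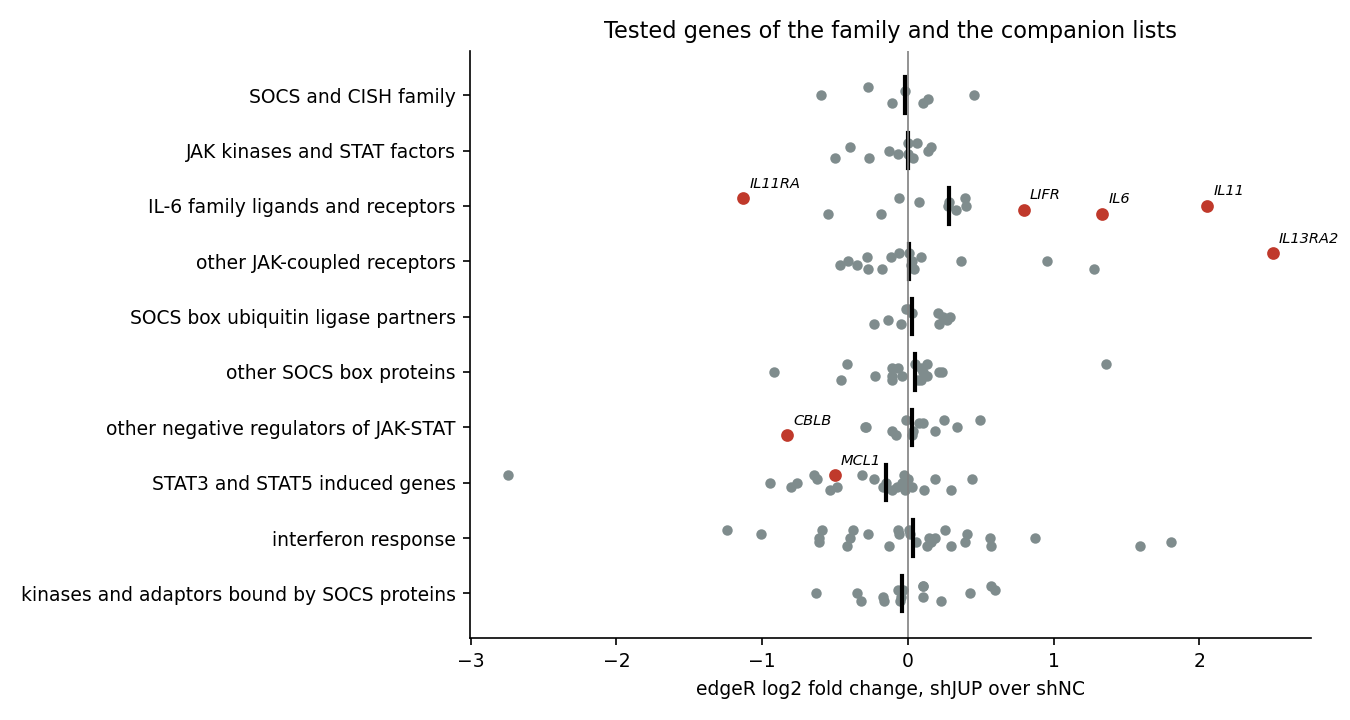
EdgeR log2 fold change of each tested gene in the SOCS and CISH family and the 9 other lists. Points are genes, black bars medians, and red points genes with a DESeq2 adjusted p under 0.05. The family holds no red point, and its 7 members lie between -0.60 and 0.46.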

How the data were processed

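RNA of 6 SKOV3 samples was sequenced after oligo(dT) enrichment on a DNBSEQ instrument, per the labels' protocols. The authors deposited expected counts, estimates of the reads of each Ensembl gene in each library. Tools named, per the submitters' processing notes, were edgeR 3.32.1, DESeq2 1.26.0, STAR 2.7.9a and RSEM 1.3.3, without what each did. FPKM values that the labels mention are not used here. The genome build, annotation and strand setting were not given in the sources. Of 60695 rows, 31 held annotation text with no number and were left out. Counts were rounded to whole numbers.

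All genes were fitted with edgeR 4.0.16 in R 4.3.3: filterByExpr (15867 genes kept), TMM scaling, and the two-sided quasi-likelihood test at an adjusted p (Benjamini-Hochberg) under 0.05. Standard errors were derived from the log2 fold change and the F statistic, and 95% intervals from the t distribution. Ratios within numbers have exact binomial intervals, which like the Poisson ones cover counting error only. DESeq2 1.42.0, limma-voom (limma 3.58.1), other scalings and filters, a block for the library number and left-out libraries were alternatives. Deviations from the group mean correlated at r = 0.14, 0.51 and 0.20 between same-numbered libraries, above the limit of 0.1 set for pairing. However, shJUP 3 correlated more with shNC 1 (0.39), and shJUP 1 slightly more with shNC 3 (0.15). Only number 2 was matched best by its own number in both groups. The labels call the replicates independent without saying what separates them. Exon lengths and overlaps came from GENCODE release 29. The edgeR fit was tested on simulated counts without a library-number effect, so that test does not cover data in which the number-2 libraries stand apart.

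The members and lists were chosen with earlier results of these data known. Named genes were the members, JUP and PDGFB, cell type markers where a level is given, up to 3 genes of each list with the smallest edgeR p, and for members of at least 5 CPM the 2 most correlated genes of at least 5 CPM. CUL5, IL6ST, OSM, IL11RA, STAT5A, SOCS2-AS1, MAPKAPK3, IFIT1, MX1, IFI44L, OAS1, OAS2 and OAS3 fall outside this rule and were named after their values were seen.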

Additional observations from a re-analysis of the deposited data

How the results depend on the processing

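Over 17 alternatives, 0 members passed after adjustment in each. SOCS3, SOCS4, SOCS5, SOCS7 and CISH kept their direction in all 17. SOCS3 ranged from 0.19 to 0.95, SOCS4 from -0.42 to -0.16, SOCS5 from 0.03 to 0.23, SOCS7 from 0.01 to 0.20 and CISH from -0.83 to -0.09 on the log2 scale. SOCS2 turned to 0.08 without both number-2 libraries (edgeR 0.078, DESeq2 0.076) and ranged from -0.29 to 0.033 with 1 library left out. SOCS6 turned to 0.012 with library totals only and ranged from -0.056 to 0.047 with 1 library left out. The replicate block gave log2 values of 0.54 for SOCS3 and -0.26 for SOCS4 and changed no call of a member. Companion genes called numbered 0 of 154, but 7 (4.55%) with DESeq2 and 15 (9.74%) with DESeq2 and the replicate block. The shares over all genes were 1.19% and 5.25%. Leaving out the number-2 libraries gave 1 (0.649%) with edgeR (IL11, higher) and 15 (9.74%) with DESeq2. The share over all genes was not computed for either of those settings. Among all genes 0 were called, but 5 without the filter, 179 with DESeq2, 1 with the replicate block in edgeR, 696 with it in DESeq2, and 49 (edgeR) and 643 (DESeq2) without both number-2 libraries. The cause was not tested. Levels per kilobase by the longest transcript were 3.41 for SOCS2, 9.18 for SOCS5 and 8.25 for SOCS7, because that length is shorter. Depth limits SOCS1 and CISH, with at most 7 and 68 counts per library.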
